A study of Drosophila melanogaster with 10 samples.

Results

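The 8 genes described here are components of the Drosophila JAK-STAT pathway: the ligand genes upd1, upd2 and upd3, the receptor gene dome, the receptor-like gene et, the kinase gene hop, the transcription factor gene Stat92E and the inhibitor gene Socs36E. They were found by pairing FlyBase identifiers with symbols, and they are 8 of the 17559 genes in the count table. All 8 passed the filter on low counts and were among the 13928 genes tested. RNA came from whole adult males, 5 flies per sample, aged 5 to 10 days. The 5 Mef2 knockdown samples carried w[1118] on the X chromosome, 1 copy of the c564 driver and the UAS-Mef2-IR[GD15549] transgene, which encodes a hairpin RNA against Mef2. The 5 control samples carried w[1118] and 1 copy of c564 without the transgene. The sources differ on where the transgene sits, because the sample labels put it on another chromosome than the driver and the series' design text puts it opposite the driver. The c564 line expresses GAL4 in fat body cells and in several further tissues, and tissues outside its range contribute to every whole-fly value.

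In flies, the secreted Unpaired proteins bind the receptor Domeless, the kinase Hopscotch bound to that receptor phosphorylates it and the factor Stat92E, and phosphorylated Stat92E enters the nucleus to activate genes. Socs36E is itself a target of Stat92E and feeds back on the pathway as an inhibitor. In adults the pathway is known for the response of the fat body to wounding, infection and stress, in which blood cells and gut cells release Upd3 and the fat body makes Turandot peptides.

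Total counts were 43823883 to 102851945 per library over both groups. Mef2, the targeted gene, had 75.9, 78.7, 73.6, 81.6 and 86.6 counts per 1000000 (CPM) in knockdown replicates 1 to 5 and 95.1, 92.6, 101, 90.7 and 88.8 CPM in control replicates 1 to 5. The groups did not overlap, and the log2 change was -0.24 (SE 0.06, adjusted p = 0.0149). Replicates 1 to 3 alone gave -0.34, and replicates 4 and 5 alone gave -0.12, which did not pass (adjusted p = 0.28). Unless another tool is named, adjusted p-values come from the quasi-likelihood test of edgeR, with the method of Benjamini and Hochberg over the 13928 genes, or over 13977 genes for replicates 1 to 3 alone and 13927 for replicates 4 and 5 alone, where the filter was applied anew. A gene is called at an adjusted p under 0.05, and values after ± are SDs over 5 libraries. Replicates 1 to 3 and replicates 4 and 5 of both groups stood apart. Deviations from the group means correlated at 0.17 to 0.41 between knockdown and control libraries of the same set with different numbers, and at -0.37 to -0.12 between libraries of different sets. No label names these sets, and values within them are given beside those of the genes described. The 7 fat body markers were detected, and their summed level was 3155 to 3414 CPM in knockdown and 2699 to 2842 CPM in control for replicates 1 to 3. For replicates 4 and 5 it was 2828 to 3279 CPM in knockdown and 3339 to 3378 CPM in control, so the order of the groups in this sum differed between the sets. Most of the sum was apolpp, which averaged 2527 CPM in knockdown and 2462 CPM in control. Within replicates 1 to 3 and within replicates 4 and 5, log2 changes were 0.23 and -0.26 for apolpp and 0.51 and -1.73 for Lsp2. They were 0.69 and 0.67 for Mtp, 0.22 and 0.19 for Apoltp, and 0.68 and 0.50 for Lsp1gamma. For bmm they were 0.02 and 0.50, and for to -0.19 and -0.62. Of these 7, Mtp was called higher and to lower over all libraries, and the effect on Lsp2, apolpp and bmm differed between the sets by edgeR's interaction test (log2 -2.20, -0.47 and 0.51, adjusted p = 0.0118, 0.0237 and 0.00561). Their part in the members' values was not tested. In whole animals, fewer cells of a type and less RNA per cell cannot be told apart.

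Between knockdown and control, et was the member that passed the test. It rose by a log2 of 0.67, which is 1.59-fold (SE of the log2 change 0.07, adjusted p = 0.000142). The ligand gene upd3 and Socs36E had higher means in knockdown with wide spreads, and the other 5 genes had log2 changes of -0.19 to 0.51 that did not pass. Thus 1 of 8 members was called, which is 12.5%, against 16.6% of all tested genes (11.1% higher and 5.51% lower). Over all libraries, no member was called lower by edgeR, by DESeq2 or by limma voom, and 1, upd1, was lower at an unadjusted p under 0.05. The groups did not overlap for 2 members, dome and et, and this was so for 18.6% of all tested genes. The median log2 change was 0.32 over the 8 members and -0.0039 over all tested genes. The members' median lies between dome (0.16) and Socs36E (0.48), and above it upd2, upd3 and Socs36E did not pass. The medians of the members and of all tested genes were 0.11 and -0.0076 within replicates 1 to 3, and 0.33 and -0.014 within replicates 4 and 5. The split of all calls depended on the scaling, with 66.9% higher under TMM and 53.2% higher under upper-quartile scaling.

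**Figure D1:**
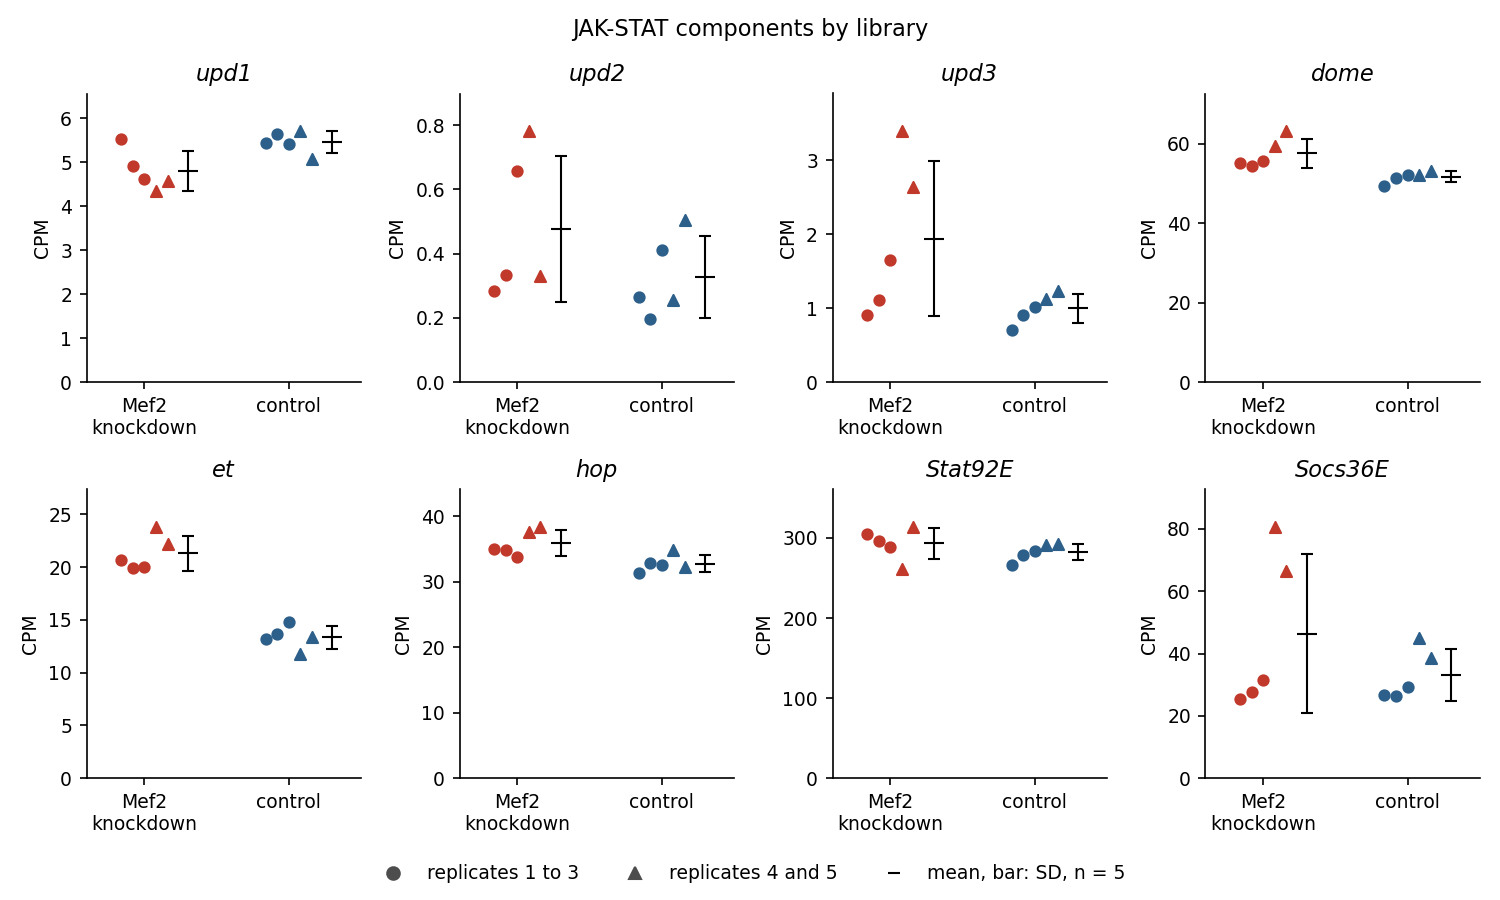
Level of each JAK-STAT component in CPM (y axis, from 0) in each of the 5 Mef2 knockdown and 5 control libraries. Circles are replicates 1 to 3, triangles are replicates 4 and 5, and the bar gives the mean and SD. The et points of the 2 groups are apart (19.9 to 23.8 CPM in knockdown against 11.8 to 14.8 CPM in control), and the triangles of Socs36E lie above its circles in both groups.

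Levels of different genes were compared per kb of exon. The members spanned a wide range, and their order had Stat92E at the top and the 3 ligands at the bottom. Stat92E averaged 56.3 ± 3.8 CPM per kb in knockdown and 54.2 ± 2.0 CPM per kb in control, and its mean over all libraries exceeded that of 88.1% of the 13699 tested genes with a known length. dome averaged 11.8 ± 0.8 CPM per kb in knockdown and 10.6 ± 0.3 CPM per kb in control. Socs36E averaged 13.2 ± 7.3 CPM per kb in knockdown and 9.46 ± 2.35 CPM per kb in control, and its range overlapped that of dome in both groups. hop averaged 7.10 ± 0.39 CPM per kb in knockdown and 6.49 ± 0.26 CPM per kb in control. The level of et was above that of hop in knockdown (8.84 ± 0.69 CPM per kb) and below it in control (5.54 ± 0.45 CPM per kb), with no overlap of their ranges within either group. Among the ligands, upd1 averaged 1.53 ± 0.14 CPM per kb in knockdown and 1.74 ± 0.08 CPM per kb in control. upd3 averaged 0.873 ± 0.473 CPM per kb in knockdown and 0.449 ± 0.091 CPM per kb in control. upd2 was lowest, at 0.241 ± 0.114 CPM per kb in knockdown and 0.165 ± 0.065 CPM per kb in control. The ranges of upd1 and upd3 overlapped in knockdown and not in control. Exon lengths are those of the Ensembl annotation and may differ from those of the annotation used for counting.

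**Figure D2:**
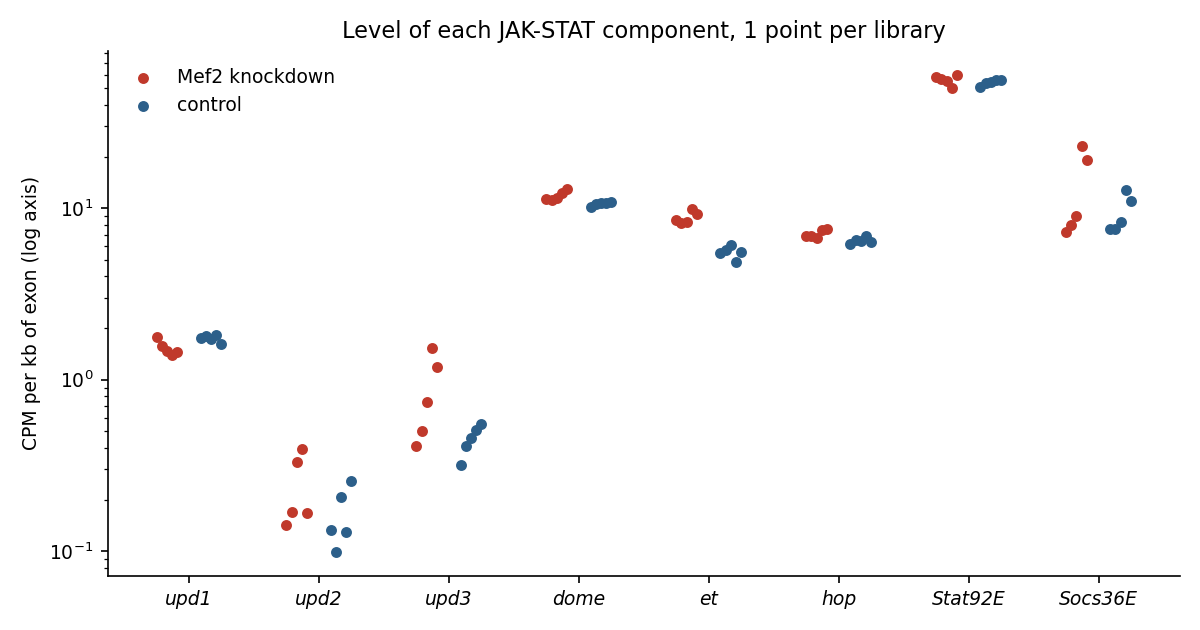
Level of each member per kb of exon (log axis), 1 point per library, Mef2 knockdown left of control. Stat92E lies at 50.2 to 60.2 CPM per kb in knockdown and 51.2 to 56.1 CPM per kb in control, and the 3 ligand genes lie below 2 CPM per kb in all 10 libraries.

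The 3 ligand genes lie near each other on the X chromosome: upd2 at 18240654 to 18243284, upd3 at 18277233 to 18284596 and upd1 at 18305354 to 18309291 (BDGP6). No other annotated gene overlaps any of them. upd1 encodes the founding Unpaired ligand, known from embryonic patterning and from the stem cell niche of the testis. It had 5.52, 4.92, 4.61, 4.35 and 4.56 CPM in knockdown replicates 1 to 5 and 5.44, 5.64, 5.40, 5.70 and 5.06 CPM in control replicates 1 to 5. Knockdown replicate 1 lay among the controls, and the other 4 knockdown libraries lay below all 5 controls. Its log2 change was -0.19 (95% interval -0.36 to -0.01, adjusted p = 0.117), and upd1 was called lower without knockdown replicate 1 (-0.25, adjusted p = 0.046). Within-set values were -0.13 in replicates 1 to 3 and -0.30 in replicates 4 and 5, and neither passed (adjusted p = 0.251 and 0.144). Of 7 testis markers tested, none was called by edgeR in either direction over all libraries (2 were lower at an unadjusted p under 0.05). Within replicates 4 and 5, 4 of the 7 (bam, aly, sa and bol) were called lower, against 14.4% of all genes tested there, and none was within replicates 1 to 3 (aly and bol were lower there at an unadjusted p under 0.05). The summed level of the 7 was 1131 to 1146 CPM in knockdown and 1148 to 1186 CPM in control for replicates 1 to 3, and 968 to 1021 CPM in knockdown and 1188 to 1213 CPM in control for replicates 4 and 5. Their part in the values of upd1 was not tested.

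upd2 encodes a ligand that the fat body releases in the fed state. Its counts were 14, 34, 32, 35 and 21 in knockdown and 13, 11, 22, 13 and 23 in control, so counting error alone is large. These counts equal 0.283, 0.333, 0.658, 0.781 and 0.331 CPM in knockdown and 0.264, 0.196, 0.411, 0.256 and 0.506 CPM in control. The groups overlapped. The log2 change of 0.51 had a 95% interval of -0.26 to 1.27 (adjusted p = 0.313), so at this depth neither no change nor a doubling could be told from the measured value. Its change was 0.49 in replicates 1 to 3 alone and 0.47 in replicates 4 and 5 alone.

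upd3 encodes the ligand known for induction by damage, infection and metabolic stress. It had 0.909, 1.12, 1.65, 3.39 and 2.63 CPM in knockdown replicates 1 to 5 and 0.711, 0.910, 1.01, 1.12 and 1.23 CPM in control replicates 1 to 5. Knockdown replicates 4 and 5 were highest, replicate 3 was also above all controls, and replicates 1 and 2 lay within the control range. Its log2 change of 0.94 (SE 0.34) did not pass (adjusted p = 0.0737). Replicates 1 to 3 alone gave 0.46 (adjusted p = 0.176), replicates 4 and 5 alone gave 1.32 (adjusted p = 0.00893), and the difference between the sets, 0.89, did not pass its test (adjusted p = 0.0915). With the replicate number as a block the change was 0.85 and was called (adjusted p = 0.0191). It was also called with DESeq2 (adjusted p = 0.0232), and without knockdown replicate 1 (1.11, adjusted p = 0.0324) or knockdown replicate 2 (1.11, adjusted p = 0.0427). With limma voom and quality weights it was 0.34 (adjusted p = 0.251). In counts, the ratio of upd3 to upd1 was 0.165, 0.227, 0.357, 0.779 and 0.578 in knockdown replicates 1 to 5 and 0.131, 0.161, 0.187, 0.197 and 0.243 in control replicates 1 to 5. This ratio is free of library scaling, and it too was highest in knockdown replicates 4 and 5. It also carries the values of upd1, which lay below all controls in knockdown replicates 2 to 5.

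The receptor genes dome and et are neighbours on the minus strand of the X chromosome, at 19676061 to 19683518 and 19672312 to 19675891, with 169 bp between them. The protein of dome is the signalling receptor. The protein of et (eye transformer, also called latran) is a related, shorter receptor known to pair with Domeless and to restrain signalling. et had 20.7, 19.9, 20.0, 23.8 and 22.2 CPM in knockdown replicates 1 to 5 and 13.2, 13.7, 14.8, 11.8 and 13.4 CPM in control replicates 1 to 5. Every knockdown library lay above every control library, and the lowest knockdown value, 19.9 CPM, was above the highest control value, 14.8 CPM. Its log2 change was 0.54 within replicates 1 to 3 (adjusted p = 6.1e-05) and 0.85 within replicates 4 and 5 (adjusted p = 0.00491). This difference of 0.33 between the sets passed its test by little (adjusted p = 0.0445), and it did not pass with DESeq2 size factors (adjusted p = 0.0524), with upper-quartile scaling (adjusted p = 0.0514) or without any 1 of 8 of the 10 libraries (adjusted p of up to 0.171, without control replicate 4).

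dome had 55.1, 54.5, 55.8, 59.5 and 63.2 CPM in knockdown replicates 1 to 5 and 49.5, 51.4, 52.2, 52.1 and 53.2 CPM in control replicates 1 to 5. The groups did not overlap, but they were close, with 54.5 CPM as the lowest knockdown value and 53.2 CPM as the highest control value. The log2 change was 0.16 (SE 0.05, 95% interval 0.04 to 0.27) and did not pass (adjusted p = 0.0576). It was 0.11 in replicates 1 to 3 alone and 0.20 in replicates 4 and 5 alone, without passing in either. It was called with DESeq2 (adjusted p = 0.0417), with limma voom and quality weights (adjusted p = 0.0371) and with the set of replicates as a covariate (adjusted p = 0.0142). Within each library, the ratio of et to dome counts was 0.375, 0.365, 0.359, 0.400 and 0.352 in knockdown replicates 1 to 5 and 0.266, 0.266, 0.283, 0.226 and 0.251 in control replicates 1 to 5. The ratio averaged 0.370 ± 0.019 in knockdown and 0.259 ± 0.021 in control, with no overlap, and it does not depend on library scaling. Per kb of exon it averaged 0.748 ± 0.038 in knockdown and 0.523 ± 0.043 in control.

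The exons of et overlap those of Zw, the gene of glucose-6-phosphate dehydrogenase on the opposite strand, by 42 bp. Zw averaged 129 ± 8 CPM in knockdown and 146 ± 8 CPM in control (log2 -0.18, adjusted p = 0.0626), so its mean difference ran against that of et. The library kit keeps strand, but whether the counting used it was not given, so reads within those 42 bp cannot be assigned to either gene with certainty. On the other side of dome, Ubqn, which encodes an ubiquilin, fell to 219 ± 15 CPM in knockdown, against 266 ± 21 CPM in control (log2 -0.28, adjusted p = 0.019). The nearest gene beyond et, asRNA:CR44512, averaged 0.515 ± 0.090 CPM in knockdown and 0.482 ± 0.081 CPM in control (log2 0.08, adjusted p = 0.853). Blood cell markers also moved: 6 of 9 hemocyte markers tested were higher, against 11.1% of all tested genes, and none was lower by edgeR at an adjusted or unadjusted p. Of these 6, NimC4 averaged 7.57 ± 4.59 CPM in knockdown and 0.66 ± 0.31 CPM in control (log2 3.52). The others had log2 changes of 0.29 (Hml) to 0.63 (Sr-CI). Within replicates 1 to 3, 7 of the 9 were called higher, against 15.4% of all genes tested there. Within replicates 4 and 5, 5 were, against 13.2%. In the same order, the changes were 3.75 and 2.72 for NimC4 and 0.70 and 0.07 for NimC1. By edgeR's interaction test the sets differed for 2 of the 9, NimC1 (-0.61, adjusted p = 0.0327) and srp (0.30, adjusted p = 0.0373). The summed level of the 9 markers was 474 to 582 CPM in knockdown and 369 to 426 CPM in control, and no marker was at 0. Their part in the change of et was not tested.

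hop encodes the Janus kinase of the fly (X chromosome, 11360930 to 11368098). It had 35.0, 34.9, 33.7, 37.6 and 38.4 CPM in knockdown replicates 1 to 5 and 31.3, 32.9, 32.5, 34.9 and 32.3 CPM in control replicates 1 to 5. Knockdown values were mostly above those of control, with an overlap at control replicate 4. The log2 change was 0.13 (SE 0.05, 95% interval 0.01 to 0.25, adjusted p = 0.104). Replicates 1 to 3 alone gave 0.10 and replicates 4 and 5 alone gave 0.15, without a call in either, and over all libraries hop was called with the set as a covariate (adjusted p = 0.0383).

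Stat92E (chromosome 3R, 20535323 to 20552311) encodes the STAT factor of the fly. It had 305, 297, 289, 262 and 314 CPM in knockdown replicates 1 to 5 and 267, 279, 284, 292 and 292 CPM in control replicates 1 to 5. The groups overlapped, and knockdown replicate 4 was the lowest library of all. The log2 change was 0.05, with a 95% interval of -0.08 to 0.18 (adjusted p = 0.537). Replicates 1 to 3 alone gave 0.10 and replicates 4 and 5 alone gave -0.05. Neither within-set value was called.

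Socs36E (chromosome 2L, 18138675 to 18152417) encodes a suppressor of cytokine signalling. It had 25.5, 27.8, 31.4, 80.6 and 66.6 CPM in knockdown replicates 1 to 5 and 26.6, 26.4, 29.2, 44.8 and 38.7 CPM in control replicates 1 to 5. Libraries of replicates 4 and 5 were higher than those of replicates 1 to 3 in both groups, and knockdown replicates 4 and 5 were highest. Over all libraries the log2 change was 0.48, with a 95% interval of -0.22 to 1.19 (adjusted p = 0.294), and it was -0.06 with limma voom and quality weights. Within replicates 4 and 5 it was 0.79 (SE 0.12, adjusted p = 0.00783), and within replicates 1 to 3 it was 0.04 (SE 0.07, adjusted p = 0.715). The difference of 0.77 between the sets passed its test (adjusted p = 0.00961), also under each alternative that was run for it (adjusted p 0.00139 to 0.0482). A difference between the sets was called in 2 of 8 members, et and Socs36E, against 18.8% of all tested genes. Within sets, et was the member called of 8 in replicates 1 to 3, where 25.3% of all tested genes were called (15.4% higher and 9.92% lower), and upd3, et and Socs36E were called in replicates 4 and 5, where 27.6% of all tested genes were called (13.2% higher and 14.4% lower). With the replicate number as a block, et and upd3 were called, against 20.4% of all tested genes (13.1% higher).

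Muscle markers moved with the sets, and midgut markers did so in control. The summed level of 8 muscle markers was 8004 to 8767 CPM in knockdown replicates 1 to 3 and 4733 to 5893 CPM in knockdown replicates 4 and 5. In control it was 7178 to 8347 CPM in replicates 1 to 3 and 5717 to 5839 CPM in replicates 4 and 5. The 6 midgut markers tested, of which 1 was called lower over all libraries, summed to 1660 to 1825 CPM in knockdown replicates 1 to 3 and 1309 to 2130 CPM in knockdown replicates 4 and 5, and to 1996 to 2034 CPM in control replicates 1 to 3 and 2232 to 2340 CPM in control replicates 4 and 5. The midgut values of knockdown replicates 4 and 5 lay on either side of those of knockdown replicates 1 to 3. In both lists no marker in the table was at 0, and their part in the values of Socs36E was not tested.

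**Figure D3:**
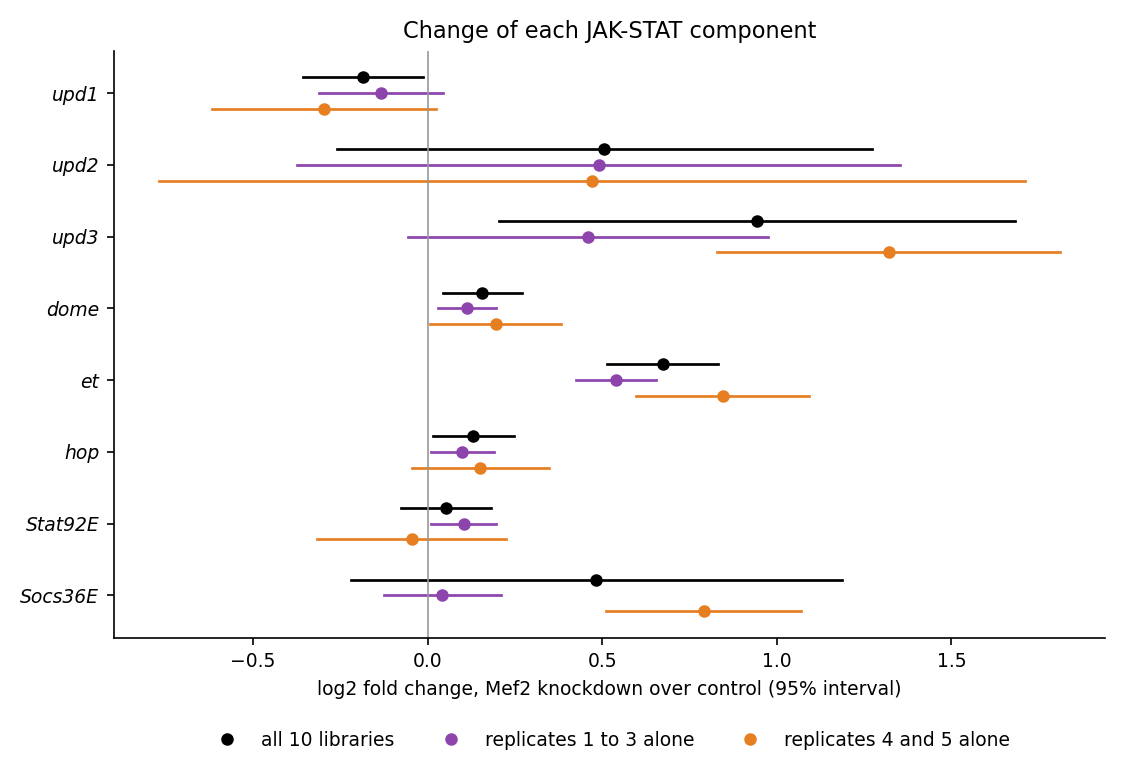
Log2 fold change of each member, Mef2 knockdown over control, with its 95% interval, from all 10 libraries (black), replicates 1 to 3 alone (purple) and replicates 4 and 5 alone (orange). The 3 intervals of et lie above 0, while Socs36E is at 0.04 in replicates 1 to 3 and 0.79 in replicates 4 and 5.

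Other regulators of the pathway were described from a list of 20 genes, of which 19 were in the table and tested. The 4 that rose were Stam, Hrs, asrij and CycD, which is 21.1% of the 19, against 11.1% of all tested genes called higher. Over all libraries, none was lower by edgeR at an adjusted or unadjusted p, nor by DESeq2 or limma voom, and the median log2 change was 0.04. Stam and Hrs encode the partners that sort ubiquitin-tagged receptors on endosomes. Stam averaged 125 ± 19 CPM in knockdown and 87.9 ± 3.4 CPM in control (log2 0.50, SE 0.09, adjusted p = 0.00337). Hrs averaged 70.2 ± 7.4 CPM in knockdown and 56.7 ± 2.3 CPM in control (log2 0.31, SE 0.07, adjusted p = 0.013). asrij, an endosomal protein of blood cells, averaged 37.4 ± 8.3 CPM in knockdown and 25.9 ± 0.9 CPM in control (log2 0.53, SE 0.12, adjusted p = 0.0131). The cyclin D gene CycD averaged 15.9 ± 3.5 CPM in knockdown and 11.9 ± 0.7 CPM in control (log2 0.42, adjusted p = 0.0447). Its call was lost without any 1 of 7 libraries, namely knockdown replicates 4 and 5 and all 5 controls (adjusted p 0.0654 to 0.11), and with no filter beyond 1 count (adjusted p = 0.0528). Within replicates 1 to 3 and within replicates 4 and 5, the log2 change was 0.23 and 0.62 for CycD, 0.39 and 0.63 for Stam, 0.24 and 0.38 for Hrs, and 0.38 and 0.70 for asrij, and each of these passed. The difference between the sets passed for CycD (0.42, adjusted p = 0.0121) and Stam (0.27, adjusted p = 0.0352) and not for Hrs or asrij. The tyrosine phosphatase gene Ptp61F, an inhibitor of the pathway, averaged 71.7 ± 6.0 CPM in knockdown and 67.6 ± 1.2 CPM in control (log2 0.08, adjusted p = 0.301). Of the other inhibitors, the PIAS gene Su(var)2-10 had a log2 change of 0.04, the transcriptional repressor ken of -0.01, Socs16D of 0.03 and Socs44A of 0.20, and none passed.

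**Figure D4:**
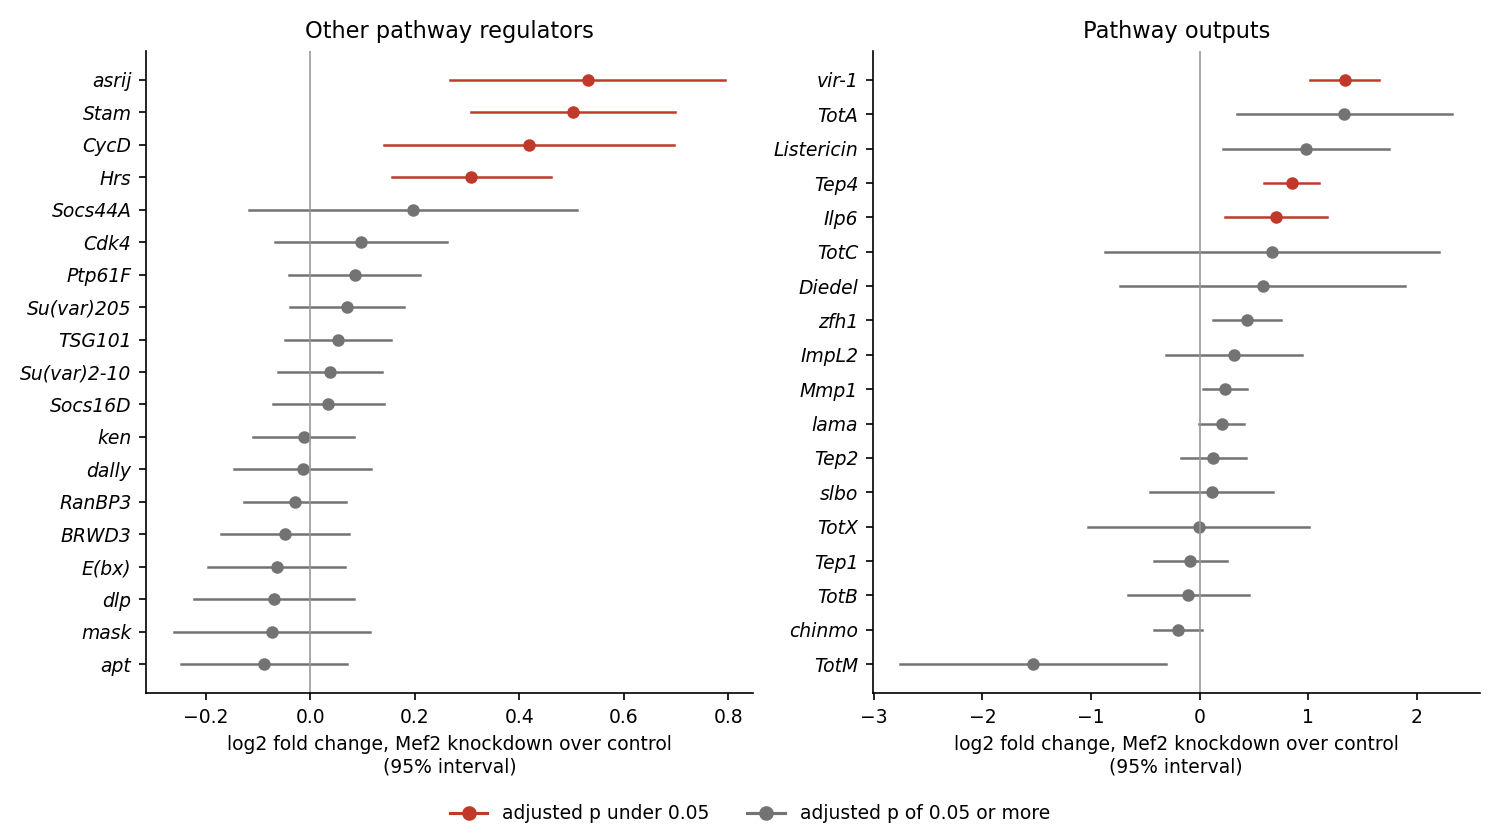
Log2 fold change (x axis, Mef2 knockdown over control) with 95% interval for the 19 other regulators tested (left) and the 18 outputs tested (right). Red marks an adjusted p under 0.05, which 4 regulators and 3 outputs reached, each of them higher in knockdown.

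Genes known to respond to the pathway were described from a list of 21, of which 20 were in the table and 18 were tested. The 2 that failed the filter, TotF and TotZ, had at most 4 counts in any library. vir-1, Tep4 and Ilp6 rose, which is 16.7% of the 18 against 11.1% of all tested genes called higher. Over all libraries, none was called lower by edgeR, DESeq2 or limma voom, 1 was lower at an unadjusted p under 0.05, and the median log2 change was 0.28. vir-1, a gene named for its induction by virus, had 1271, 1142, 1348, 1979 and 1760 CPM in knockdown replicates 1 to 5 and 544, 583, 541, 629 and 669 CPM in control replicates 1 to 5. The groups were far apart (log2 1.34, SE 0.15, adjusted p = 0.000142), with 1.17 in replicates 1 to 3 alone and 1.5 in replicates 4 and 5 alone. Tep4, a secreted thioester protein gene, had 288, 326, 321, 343 and 365 CPM in knockdown and 151, 161, 166, 218 and 218 CPM in control, again with no overlap (log2 0.85, SE 0.11, adjusted p = 0.000635), and its change was 0.97 in replicates 1 to 3 alone and 0.68 in replicates 4 and 5 alone. Ilp6, an insulin-like peptide gene of the fat body, had 39.3, 43.0, 39.9, 34.4 and 57.3 CPM in knockdown and 34.5, 30.2, 32.1, 15.1 and 19.6 CPM in control. Its log2 change was 0.70 (SE 0.22, adjusted p = 0.0461), and the call was lost without any 1 of 8 libraries (adjusted p 0.055 to 0.111), the exceptions being knockdown replicate 4 and control replicate 1. Upper-quartile scaling (adjusted p = 0.0581) and a filter of no more than 1 count (adjusted p = 0.0525) ended the call as well. In replicates 1 to 3 alone the change was 0.34 (adjusted p = 0.002), replicates 4 and 5 alone gave 1.39 (adjusted p = 0.0128), and this difference of 1.07 passed its test (adjusted p = 0.0188).

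**Figure D5:**
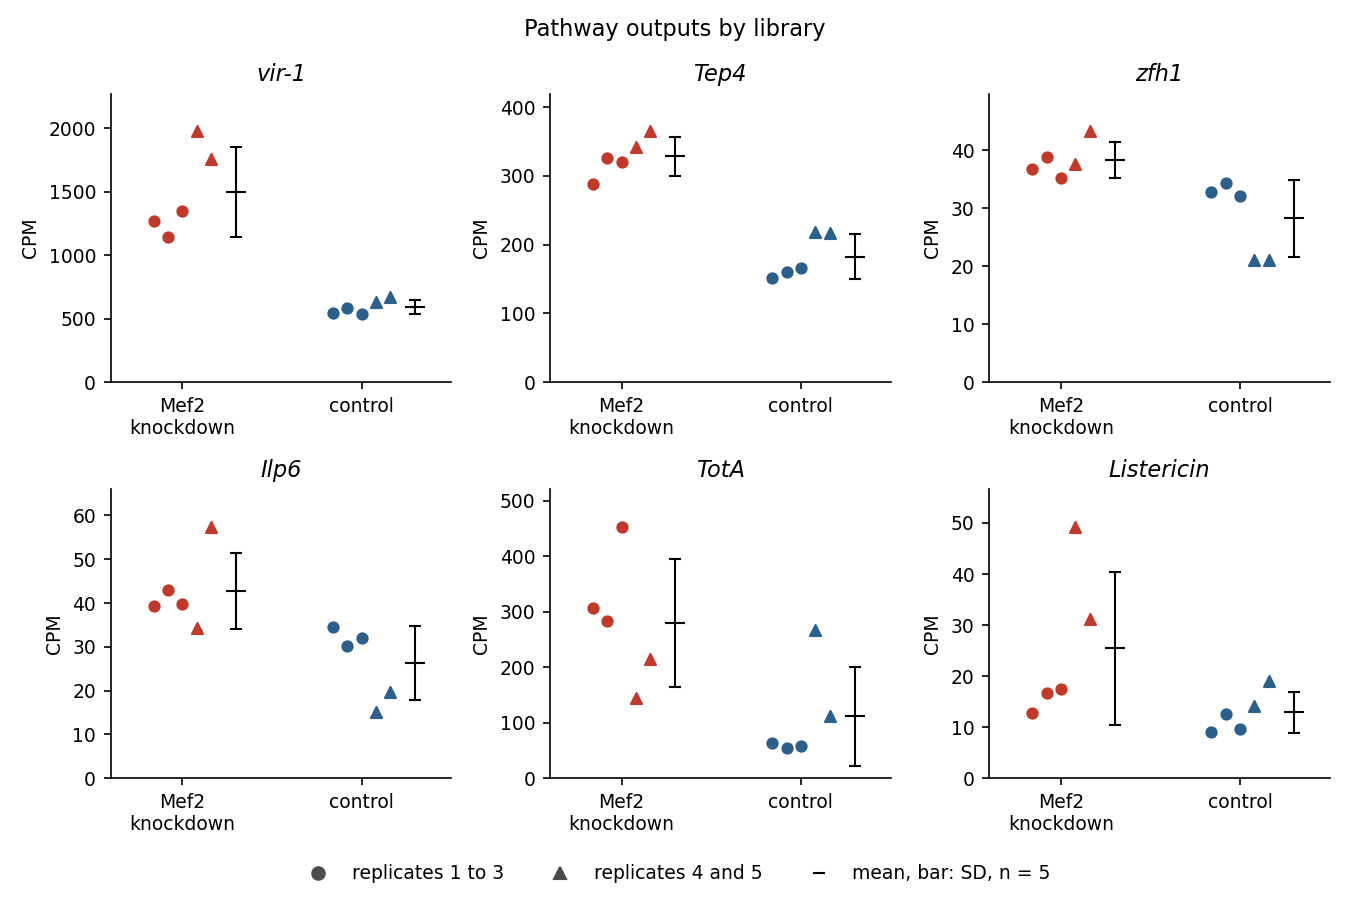
Level in CPM (y axis, from 0) of 6 pathway outputs in each Mef2 knockdown and control library. Circles are replicates 1 to 3, triangles are replicates 4 and 5, and the bar gives the mean and SD. vir-1 and Tep4 are separate between the groups in both sets, while TotA is higher in knockdown among circles and not among triangles. Listericin was chosen after its values were seen.

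Several outputs also differed between the sets of replicates. The stress peptide gene TotA had 307, 283, 452, 144 and 214 CPM in knockdown replicates 1 to 5 and 63.9, 53.8, 58.9, 266 and 113 CPM in control replicates 1 to 5. Its log2 change was 1.33 (adjusted p = 0.0629) over all libraries, 2.56 within replicates 1 to 3 (adjusted p = 4.91e-06) and -0.10 within replicates 4 and 5 (adjusted p = 0.866). The difference between the sets passed its test (-2.64, adjusted p = 0.0069). Without control replicate 4, the highest control library, TotA was called (1.95, adjusted p = 0.00436). zfh1, a transcription factor gene that is a STAT target in the testis, had 36.7, 38.9, 35.2, 37.6 and 43.3 CPM in knockdown and 32.8, 34.3, 32.0, 21.0 and 21.1 CPM in control. Its log2 change was 0.44 (adjusted p = 0.0549), 0.16 within replicates 1 to 3 and 0.92 within replicates 4 and 5, and this difference of 0.78 passed its test (adjusted p = 0.00254). With the replicate number as a block zfh1 was called (adjusted p = 0.0486). Listericin, an antibacterial peptide gene, averaged 25.5 ± 15.0 CPM in knockdown and 12.9 ± 4.0 CPM in control (log2 0.98, adjusted p = 0.0725, and adjusted p = 0.0132 with the block). With the block 6 of 18 outputs were called, all higher, against 13.1% of all tested genes called higher, the others being vir-1, Tep4, Ilp6 and the matrix metalloprotease gene Mmp1 (adjusted p = 0.0276, against 0.0924 without the block). Of the 18 outputs, 11 were higher and none lower by edgeR (at an adjusted or unadjusted p) within replicates 1 to 3, where 15.4% of all tested genes were higher and 9.92% lower. Within replicates 4 and 5, 8 were higher and 2, TotM and TotX, lower, where 13.2% of all tested genes were higher and 14.4% lower. Control replicate 4 was above control replicate 5 for both, at 20.8 against 4.78 CPM for TotM and 29.6 against 10.4 CPM for TotX. Knockdown replicates 4 and 5 had 2.59 and 2.02 CPM of TotM and 4.60 and 8.28 CPM of TotX. A difference between the sets was called in 6 of 18 (TotA, TotC, TotX, zfh1, Ilp6 and lama), against 18.8% of all tested genes. For TotA, TotC and TotX, control replicate 4 was the highest control library. TotC had 87.0 CPM there, 19.6 CPM in control replicate 5 and 6.95 to 11.3 CPM in the other controls. The listed output Diedel was also highest there among controls, at 3.47 CPM against 0.284 to 0.430 CPM in the others. Diedel was called higher in replicates 1 to 3 alone (2.05, adjusted p = 6.5e-05), and its difference between the sets did not pass (adjusted p = 0.0603). Like TotA, TotC (log2 2.74) and TotX (1.11) were called higher from replicates 1 to 3 alone, while TotB (0.34) and TotM (-0.30) did not pass. Whether the Tot differences between the sets rest on control replicate 4 was not tested.

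For each member, the genes whose deviations from the group means were most like its own were sought among 10610 other genes over the 10 libraries. Pearson's r is given as a description, because the libraries fall into the 2 sets and share their composition, so one difference between the sets can set r for many genes. For Socs36E the most alike were Slimp (r = 0.996), which encodes a mitochondrial relative of seryl-tRNA synthetase, and Sec61alpha (r = 0.995), a subunit of the endoplasmic reticulum translocon. For upd3 they were the membrane protease gene S2P (r = 0.983) and the chaperone gene Grp170 (r = 0.974). For et they were the dopamine receptor gene Dop1R2 (r = 0.975) and CG3862 (r = 0.936). For dome they were sol (r = 0.983) and Faf2 (r = 0.981), for hop Hs2st (r = 0.961) and Gp210 (r = 0.956), and for Stat92E pdm3 (r = 0.970) and PolA1 (r = 0.960). For upd1 they were Kyat (r = 0.953) and CG17726 (r = 0.950), and for upd2, where counting error is large, Uros1 (r = 0.875) and CG11131 (r = 0.864).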

How the data were processed

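Polyadenylated RNA from whole flies was sequenced from stranded libraries. The authors deposited raw counts for 17559 genes in 10 columns, 1 per library. Software named in the submitters' processing notes comprises STAR 2.4.0j, featureCounts, limma and bcl2fastq, with genome BDGP6. Annotation release, strand setting and handling of multimapping reads were not given in the sources used here. Symbols, coordinates and exon lengths came from the Ensembl annotation of BDGP6, in which 17253 identifiers were found.

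Counts were tested with edgeR 4.0.16 in R 4.3.3, using TMM scaling, filterByExpr (minimum count 10) and a quasi-likelihood model with group as its 1 term. The SE of a log2 change is its size over the root of its F statistic. CPM is TMM-scaled, and a floor of 3 counts equals 0.0294 to 0.067 CPM, for counting error only. Alternatives were DESeq2 1.42.0, limma 3.58.1 (voom with quality weights), other scalings and filters, the replicate number or the set in the model, each set alone, and each library left out. Alternatives for the difference between the sets were chosen after seeing the data. Of the models, the edgeR fit by group and the edgeR fit of the difference between the sets were tested on simulated data. The simulation gave all genes the same spread between libraries and had no shift of a set shared by both groups. Libraries of a group differed beyond sampling noise (chi-square over its degrees of freedom of 7.14 or more), and the series' design text calls them biological replicates.

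Sample labels carry replicate numbers 1 to 5 in either group. Knockdown and control samples that share a number deviated together (r of 0.24 to 0.37), over the bound of 0.1 in all 5 pairs, so a model blocked on the number was run beside the unblocked one. No label states a pairing. Libraries of the same set with different numbers also correlated, at 0.17 to 0.41. A pairing by number therefore cannot be told apart from the sets by these values. The members, lists and tests were chosen with earlier results of these data known. Genes named were the members, Mef2, the 5 genes of each pathway list with the smallest p, the 2 genes most alike to each member (among those whose log2 CPM averaged 2 or more), and the neighbours of et. Other list genes, Ubqn and Zw were named after their values were seen. RanBP10, wg, esg, Dl and vas were not analysed here.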

Additional observations from a re-analysis of the deposited data

Results flagged for a closer look

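The effect of the knockdown differed between the sets of replicates (replicates 4 and 5 minus replicates 1 to 3, log2) in 8 of the 19 genes checked, and in 18.8% of all tested genes. The 19 are the members, Mef2 and the 5 genes of each of 2 lists with the smallest p in these data, so their count is a description. The differences were 0.77 for Socs36E (adjusted p = 0.00961), 0.33 for et (adjusted p = 0.0445), 0.24 for Mef2 (adjusted p = 0.0425), 0.27 for Stam (adjusted p = 0.0352), 0.42 for CycD (adjusted p = 0.0121), 1.07 for Ilp6 (adjusted p = 0.0188), 0.78 for zfh1 (adjusted p = 0.00254) and -2.64 for TotA (adjusted p = 0.0069), each by edgeR's interaction test over all tested genes.

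In 2 of the 38 groups of 5 libraries checked, 1 library lay far from the other 4 (by Dixon's test, which chance alone meets in about 1 of 20 groups). asrij was at 51.9 CPM in knockdown replicate 4, where the median of the group was 34.8 CPM. TotA was at 266 CPM in control replicate 4, where the median of the group was 63.9 CPM.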

How the results depend on the processing

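The calls of et, vir-1, Tep4, Stam, Hrs and asrij were kept under all 9 other settings and all 10 leave-one-out fits, with log2 changes of 0.54 to 0.85 for et. Members called higher numbered 3 with DESeq2, 2 with limma voom, 2 with the replicate block (upd3 at 0.85), 4 with the set as a covariate and 3 in replicates 4 and 5 alone, against 1, and the block changed no other call of a member. Members whose call changed were upd3 (0.95 with DESeq2, 0.86 with the set, 1.32 in replicates 4 and 5), dome (0.15 with DESeq2, 0.10 with voom, 0.16 with the set), hop (0.13 with the set) and Socs36E (0.79 in replicates 4 and 5). Outputs called higher numbered 5 with DESeq2, 6 with voom, 6 with the block, 8 with the set, 11 in replicates 1 to 3 and 8 in replicates 4 and 5, against 3, and 2 were lower in replicates 4 and 5. Over all genes, higher calls numbered 1901 with DESeq2, 2164 with voom, 1819 with the block and 2687 with the set, against 1549. They numbered 2150 in replicates 1 to 3 and 1832 in replicates 4 and 5, so under these settings calls rose over all genes too. Lower calls numbered 1304 with DESeq2, 1547 with voom, 2084 with the set, 1386 in replicates 1 to 3 and 2011 in replicates 4 and 5, against 768.

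Leaving out 1 library gave 853 to 1612 higher and 414 to 941 lower calls over all genes (lowest without control replicate 3 and without control replicate 4), 1 to 2 members higher, 0 to 1 member lower and 2 to 5 outputs higher. The log2 change then ranged from -0.25 to -0.17 for upd1 and from 0.64 to 1.11 for upd3. Members whose effect differed between the sets numbered 1 with DESeq2 size factors, 1 with upper-quartile scaling and 1 to 4 without 1 library, against 2. The cause of these changes was not tested. Depth limits upd2, at 11 to 35 counts per library, and upd3, at 35 to 167 counts.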
